A study of Mus musculus with 20 samples.

Results

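The genes described here encode collagens, laminin chains, integrin subunits, matrix metalloproteinases (MMPs), their tissue inhibitors (TIMPs), lysyl oxidases and ADAMTS proteases of mouse liver cancer cells. They were chosen by symbol alone, as every gene of a count table whose symbol begins with Col and a digit, with Lama, Lamb or Lamc and a digit, with Itga, with Itgb and a digit, with Mmp, with Timp and a digit, with Lox or with Adamts. The rule found 77 of the 13107 genes of one experiment and 54 of the 11210 genes of the other, and all 54 were among the 77. Of the 77, 3 carried such a symbol without encoding a matrix, receptor or protease protein: Col4a3bp (a ceramide transfer protein), Itgb1bp1 and Itgb3bp. They were kept, since the rule takes them, and are named as such.

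RNA-seq was run on p19/Nras cells, a line from a liver tumour that lacks p19 and carries Nras, with or without a CRISPR guide against Trim33, which encodes a nuclear ubiquitin ligase. In the Myc experiment, cells with the control guide (WT) and 2 lines with a Trim33 guide (KO1 and KO2) each carried the empty pWZL vector (Ctrl) or a Myc vector (Myc), which gave 6 groups. In the HU experiment, cells with the control guide (WT) and with a Trim33 guide (KO) received vehicle or 1 mM hydroxyurea (HU), which blocks ribonucleotide reductase and stalls replication forks, for 4 h, which gave 4 groups. Every group had 2 libraries, all groups shared the p19 and Nras background, and neither the KO line of the HU experiment nor the clonality of any line is given in the labels.

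Collagens form the fibrils, beaded filaments and networks of the extracellular matrix, and laminins polymerise with type IV collagen into basement membranes. Integrins, pairs of an alpha and a beta subunit, bind these proteins at the cell surface, lysyl oxidases crosslink collagen, MMPs and ADAMTS proteases cut matrix proteins, and TIMPs inhibit both kinds of protease. In liver, fibrillar collagens are known chiefly as products of activated stellate cells and fibroblasts, while epithelial cells make basement membrane chains and their receptors. Trim33 binds Smad proteins, the transcription factors of TGF-β signalling, a pathway known to induce many collagen genes.

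Promoter sequences from RefSeq (build GRCm38.p6) were matched to 53 of the 77 genes, with 58 promoters in all. The bases upstream of the start site, 250 per promoter, are shown for 4 genes, because Col3a1 and Col1a2 ranged widely between groups, Col6a1 was higher in both KO lines, and Timp3 rose with HU in both genotypes. Capitals mark the letters searched on both strands, which were AP-1 (TGANTCA), TEAD (GGAATG), Smad (CAGAC), TATA box (TATAAA) and the Myc E-box (CACGTG).
Col3a1, chr1:45311288-45311537, plus strand: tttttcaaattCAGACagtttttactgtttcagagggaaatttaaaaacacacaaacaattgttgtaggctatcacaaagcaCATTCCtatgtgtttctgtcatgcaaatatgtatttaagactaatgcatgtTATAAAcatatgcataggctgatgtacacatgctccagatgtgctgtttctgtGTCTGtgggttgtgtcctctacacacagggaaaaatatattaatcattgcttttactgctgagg
Col1a2, chr6:4505368-4505617, plus strand: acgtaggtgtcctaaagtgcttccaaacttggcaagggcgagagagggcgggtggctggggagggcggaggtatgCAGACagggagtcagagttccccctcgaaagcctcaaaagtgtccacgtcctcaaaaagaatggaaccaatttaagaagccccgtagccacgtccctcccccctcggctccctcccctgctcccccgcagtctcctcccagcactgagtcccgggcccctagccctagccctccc
Col6a1, chr10:76726045-76726294, minus strand: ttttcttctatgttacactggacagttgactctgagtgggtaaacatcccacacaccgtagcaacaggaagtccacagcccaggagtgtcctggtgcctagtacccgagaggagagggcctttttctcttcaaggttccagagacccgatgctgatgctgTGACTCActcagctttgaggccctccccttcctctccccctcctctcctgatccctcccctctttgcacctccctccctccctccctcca
Timp3, chr10:86300162-86300411, plus strand: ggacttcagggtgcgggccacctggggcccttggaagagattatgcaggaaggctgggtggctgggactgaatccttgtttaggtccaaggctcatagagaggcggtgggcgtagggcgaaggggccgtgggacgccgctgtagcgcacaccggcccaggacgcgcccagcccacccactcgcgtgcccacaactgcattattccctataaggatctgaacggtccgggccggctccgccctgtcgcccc
The Col3a1 window held 1 TEAD, 2 Smad and 1 TATA match, the Col1a2 window 1 Smad match, the Col6a1 window 1 AP-1 match, and the Timp3 window no match to these letters. Over all 32851 promoters of the table, 6.75% held the AP-1 letters, 12.6% the TEAD letters, 42.2% the Smad letters, 12.4% the TATA box and 6.02% the Myc E-box. Among the 58 promoters of the genes described here these shares were 6.90%, 13.8%, 51.7%, 12.1% and 0%. The Mmp3, Mmp10 and Mmp13 windows, on chromosome 9, each held an AP-1 and a TATA match. A match is a run of letters, not a site shown to be used.

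Libraries of the Myc experiment held 14753177 to 17949430 counts and those of the HU experiment 2315327 to 3082202 counts, so low genes were measured less precisely in the latter. Levels are given as CPM, the counts of a gene per 1000000 counts of its library, library by library in the order replicate 1 and replicate 2. Trim33 was at 236 and 247 CPM in the WT Ctrl libraries, 122 and 130.3 in those of KO1 Ctrl, 204 and 210.0 in those of KO2 Ctrl, 132 and 158 in WT Myc, 186 and 195 in KO1 Myc, and 125 and 126 in KO2 Myc. Among the Ctrl libraries both KO lines were below WT, KO2 only slightly, while the libraries labelled KO1 Myc were above those labelled WT Myc. The study tested the knockout by immunoblot, and these mRNA levels do not tell whether the protein was lost, so they cannot settle the labels. The Myc groups are therefore named by label throughout, and no direction drawn from them is more than a difference between libraries so labelled. In the HU experiment Trim33 was at 141 and 127 CPM in WT vehicle, 145 and 142 in WT HU, 49.9 and 43.0 in KO vehicle, and 50.1 and 51.5 in KO HU, without overlap between genotypes. Of 10 epithelial markers, 6 and 5 were in the Myc and HU tables, among them Krt8, Krt18 and Spp1, while of 15 hepatocyte markers only Afp and Apob were among the rows analysed, with summed levels of 0.223 to 31.7 CPM and 13.8 to 28.9 CPM. None of 8 endothelial markers was among the rows analysed, and of 14 mesenchymal markers 7 and 3 were, with Vim the highest at 2617 to 3528 CPM and Acta2, Des and Postn at 0 in at least 1 library. Such bulk measurements cannot tell fewer cells of a type from less RNA per cell.

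Per kilobase of exon (CPM divided by the length of the GENCODE exons), the highest of the 77 genes in WT Ctrl was Itgb1, the beta subunit shared by most matrix-binding integrins, with a mean level of 379 CPM per kb. Itga3, an alpha subunit that binds laminin, followed at 168, then Col18a1, a basement membrane collagen, at 145 and Timp2 at 145 CPM per kb. The fibrillar chains were far below, with Col1a2 at 10.3 and Col3a1 at 0.671 CPM per kb in WT Ctrl. In WT vehicle of the HU experiment the order began with Itgb1 at 276, Timp2 at 180.2 and Itga3 at 140.3 CPM per kb, and Col18a1 stood at 53.8. In both experiments Itgb1, Itga3 and Timp2 were thus among the most abundant transcripts of the set. Of the 77 genes, 52 had a mean of at least 5 CPM in the Myc experiment, 13 were between 1 and 5 CPM and 12 were below 1 CPM. In the HU experiment 44 of 54 had a mean of at least 5 CPM.

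The first question was how loss of Trim33 changes expression in cells with the empty vector. Most fibrillar collagens, all 3 TIMPs and most ADAMTS proteases were higher in KO1 Ctrl than in WT Ctrl. Of 6 laminin chains, Lama5 and Lamb1 were lower and the other 4 were not called. Integrins went both ways, with 4 of 9 alpha subunits higher and 2 lower, and 4 of 7 beta subunits higher and 3 lower. Itga2, Itga6 and Itgb4 were among the lower ones, and Itga5, Itgb3, Itgb5 and Itgb8 among the higher ones. In KO1 Ctrl, 37 of the 77 genes (48.1%) were higher and 19 (24.7%) were lower, against 25.5% higher and 26.7% lower among all 13107 genes tested (edgeR's quasi-likelihood test, Benjamini-Hochberg adjusted p below 0.01). In KO2 Ctrl, 27 genes (35.1%) were higher and 26 (33.8%) were lower, against 23.3% and 26.6% of all genes. The 77 log2 fold changes had a median of 0.37 for KO1 and 0.03 for KO2, and over all genes it was 0.00 and -0.01. Both comparisons used the same WT Ctrl libraries, so they are not independent of each other. Side by side, 27 genes were higher in both lines (35.1%, against 18.1% of all genes) and 16 were lower in both (20.8%, against 20.8%). Called in neither line were 12 genes (15.6%, against 37.5% of all genes). The plot of the shares of genes called shows these shares for each comparison.

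**Figure D1:**
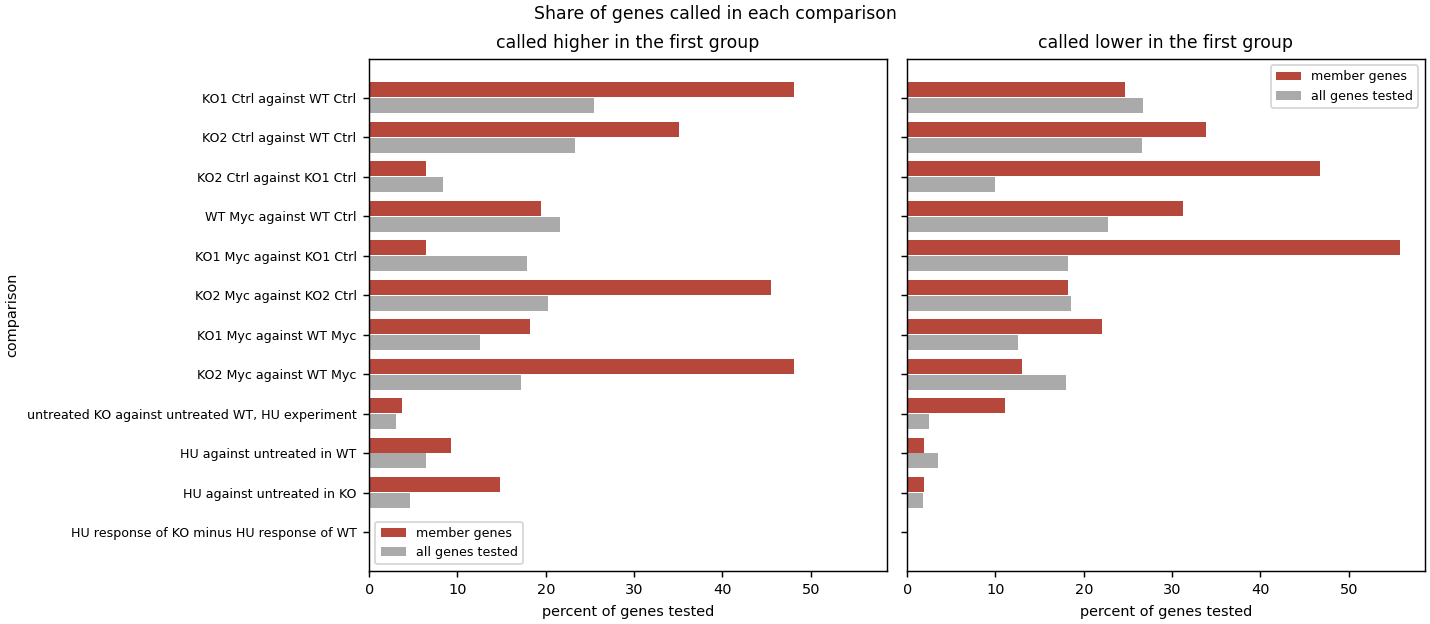
Percent of genes called higher (left) and lower (right) in the first group of each comparison, for the genes described here (red) and for all genes tested (grey), at adjusted p below 0.01 or, for the 3 HU comparisons, below 0.05. The red bars are longest for KO1 Myc against KO1 Ctrl among lower genes (55.8%) and for KO1 Ctrl against WT Ctrl and KO2 Myc against WT Myc among higher genes (48.1% each).

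Among 12 fibrillar and fibril-associated collagens, 7 were higher and none was lower in KO1 Ctrl, with a median log2 fold change of 1.14. In KO2 Ctrl 5 were higher and 2 were lower. The shares over all genes were 25.5% higher and 26.7% lower in KO1, and 23.3% and 26.6% in KO2. Values in parentheses after a gene are log2 fold changes, and where 2 are given for the Ctrl groups, KO1 against WT comes first and KO2 against WT second. Col3a1 (chr1:45368383-45406551, plus strand, mm9), the chain of type III collagen, was at 5.96 and 5.305 CPM in the WT Ctrl libraries, 367 and 318 in those of KO1 Ctrl and 45.3 and 39.2 in those of KO2 Ctrl. All KO libraries lay above both WT libraries, KO1 furthest, and the log2 fold changes (± SE) were 5.87 ± 0.13 for KO1 (edgeR adjusted p = 4.33e-15) and 2.82 ± 0.15 for KO2 (edgeR adjusted p = 1.22e-10). Col5a2, a type V chain that starts collagen fibrils and neighbours Col3a1 at a distance of 24615 bases, was at 71.7 and 78.1 CPM in the WT Ctrl libraries, 445 and 457 in those of KO1 Ctrl and 208 and 219 in those of KO2 Ctrl. Its order, WT below KO2 below KO1 without overlap, was that of Col3a1, with log2 fold changes of 2.53 ± 0.0678 and 1.43 ± 0.0673. Col5a1, the partner chain, was at 78.8 and 77.5 CPM in the WT Ctrl libraries, 139 and 129.5 in those of KO1 Ctrl and 123 and 120.1 in those of KO2 Ctrl. Col5a1 was higher in both lines (log2 fold changes 0.73 and 0.55). Col12a1, which binds the surface of collagen fibrils, was at 4.27 and 2.82 CPM in the WT Ctrl libraries, 48.5 and 42.4 in those of KO1 Ctrl and 13.1 and 13.02 in those of KO2 Ctrl. Log2 fold changes of Col12a1 were 3.63 ± 0.16 (KO1, edgeR adjusted p = 1.18e-11) and 1.80 ± 0.19 (KO2, edgeR adjusted p = 4.73e-07).

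The chains of type I collagen, which assemble together in fibrils, did not follow that order. Col1a1 was at 28.3 and 28.6 CPM in the WT Ctrl libraries, 86.9 and 84.99 in those of KO1 Ctrl and 25.1 and 22.6 in those of KO2 Ctrl. Col1a2 was at 126 and 124 CPM in the WT Ctrl libraries, 140.4 and 141 in those of KO1 Ctrl and 17.5 and 14.8 in those of KO2 Ctrl. In KO1, Col1a1 rose (log2 fold change 1.54 ± 0.0773) while the Col1a2 value of 0.12 did not pass the test, and in KO2, Col1a1 fell by 0.34 and Col1a2 by 3.03 on the log2 scale (edgeR adjusted p = 0.00316 and 4.21e-14). Per kilobase, the mean Col1a2 level went from 10.3 CPM per kb (WT Ctrl) to 11.6 (KO1 Ctrl) and 1.33 (KO2 Ctrl), and the Col1a1 level from 4.33 to 13.1 and 3.63. Of the other collagens, the type VI chain Col6a1, part of beaded filaments, was at 33.6 and 29.1 CPM in the WT Ctrl libraries, 163 and 155 in those of KO1 Ctrl and 95.9 and 91.4 in those of KO2 Ctrl. Both lines were above WT, KO1 most, with log2 fold changes of 2.29 and 1.5, and the neighbouring Col6a2 gene gave 2.31 and 1.04. Col6a3, the third type VI chain, was lower in KO1 (-0.72) and not called in KO2 (0.20). Col7a1 of anchoring fibrils and Col8a1 of short-chain networks were higher in both lines, with log2 fold changes of 1.41 and 0.72 for Col7a1 and 0.99 and 0.55 for Col8a1. The summed level of the mesenchymal marker list, carried mostly by Vim, was 2735 to 2924 CPM in the WT Ctrl libraries, 3741 to 3869 in those of KO1 Ctrl and 3370 to 3401 in those of KO2 Ctrl. That of the epithelial list was 6260 to 6453, 5190 to 5203 and 5209 to 5324 CPM in the same order. Some single markers moved more than these sums. Pdgfrb, the PDGF receptor of stellate cells and fibroblasts, was at 15.6 and 16.2 CPM in the WT Ctrl libraries, 189.6 and 167 in those of KO1 Ctrl and 107.7 and 99.6 in those of KO2 Ctrl, the order of Col3a1. Acta2 and Postn were at 4.02 CPM or less in every library and highest in KO1 Ctrl. Cdh2 shared the order of Col3a1, at 97.3 and 92.1 CPM for WT, 146 and 149 for KO2, 160 and 163 for KO1. Des went the other way, with 0 and 0.0657 CPM for KO1 against 2.03 and 2.95 for WT and 2.32 and 1.85 for KO2. Pdgfra overlapped between WT and each KO line, at 5.02 to 6.41 CPM over the Ctrl libraries. The hepatocyte marker Afp was at 31.7 and 28.9 CPM in the WT Ctrl libraries, 0.791 and 0.919 in those of KO1 Ctrl and 8.68 and 8.26 in those of KO2 Ctrl. Krt19, a keratin of biliary epithelium, was at 398 and 379 CPM in the WT Ctrl libraries, 48.1 and 46.8 in those of KO1 Ctrl and 114 and 121 in those of KO2 Ctrl. Afp and Krt19 thus had the reverse order, WT, KO2, KO1. The rest of the epithelial list did not share it clearly. KO2 Ctrl had the least Sox9 (51.6 and 50.3 CPM, with 59.3 and 55.2 for KO1). It also had the least Spp1 (1668 and 1720 CPM, with 1984 and 1932 for KO1). Krt8 was instead highest there, at 1896 and 1923 CPM, with 1833 and 1719 for WT. Krt18 was below WT in both KO lines, which overlapped, and Cldn4 was at 0.524 CPM or less. The part of these markers in the differences was not tested.

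**Figure D2:**
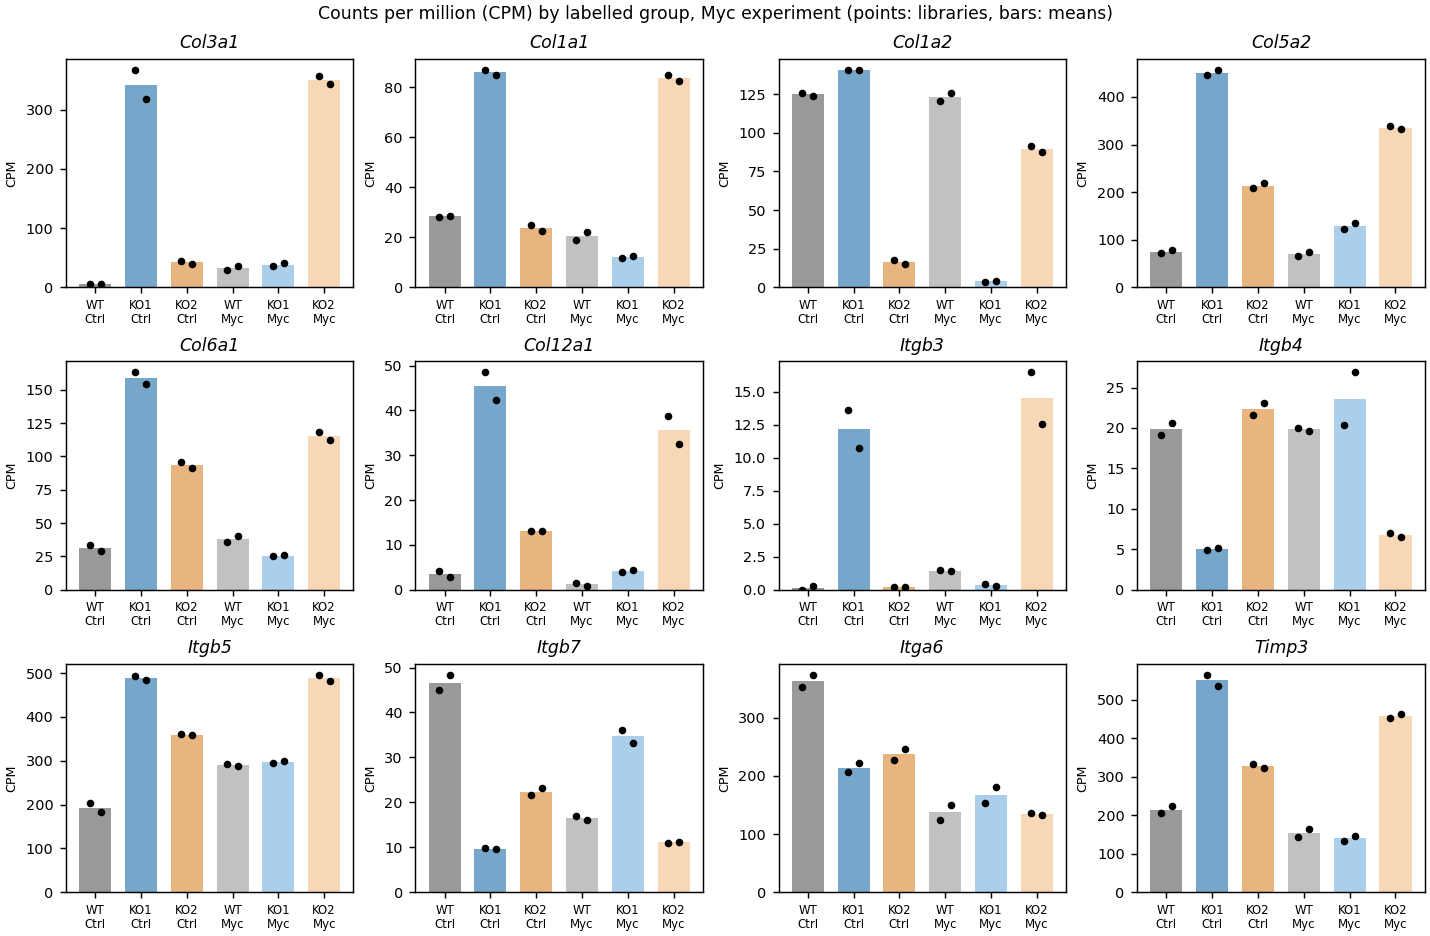
CPM of 12 genes in each library of the Myc experiment (points) with the group mean (bars), by labelled group, on linear axes that start at 0. Col3a1, Col1a1, Col12a1 and Itgb3 are highest in KO1 Ctrl and KO2 Myc, where Itgb4 and Itgb7 are lowest, and Col1a2 is lowest in KO2 Ctrl and KO1 Myc.

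Basement membrane genes had smaller changes. The type IV chains called in KO1 were Col4a1 (0.42) and Col4a5 (-0.52), and the largest laminin change there was that of Lamb1 (-0.44). Col4a1 (chr8:11198423-11312826, minus strand) and Col4a2 (chr8:11312805-11449287, plus strand), the main type IV chains, start head to head and overlap at their 5' ends, and whether counting used the strand is not given in the sources used here. Col4a1 was at 481 and 469.5 CPM in the WT Ctrl libraries, 655 and 663 in those of KO1 Ctrl and 427 and 458 in those of KO2 Ctrl. Col4a2 was at 313 and 331 CPM in the WT Ctrl libraries, 382 and 382 in those of KO1 Ctrl and 257 and 258 in those of KO2 Ctrl. In KO1 Col4a1 was higher (0.42) and in KO2 Col4a2 was lower (-0.41), and for both genes the KO2 libraries lay below the WT ones. Col18a1, whose product carries endostatin at its end, was at 1006 and 1034 CPM in the WT Ctrl libraries, 1370.4 and 1363 in those of KO1 Ctrl and 1000.4 and 1032 in those of KO2 Ctrl. Col18a1 was higher in KO1 (log2 fold change 0.37) and not called in KO2 (-0.09). None of the 6 laminin chains was higher in either line, 2 were lower in KO1 and 3 in KO2, against 26.7% and 26.6% of all genes. Lama5 was at 529 and 530.1 CPM in the WT Ctrl libraries, 424 and 469 in those of KO1 Ctrl and 382 and 394 in those of KO2 Ctrl. Lamb1 was at 716 and 699.9 CPM in the WT Ctrl libraries, 529 and 551 in those of KO1 Ctrl and 409.8 and 413 in those of KO2 Ctrl. Lamc1, which joins them in the laminin of many epithelia, was at 447 and 448 CPM in the WT Ctrl libraries, 451 and 484 in those of KO1 Ctrl and 339 and 360.4 in those of KO2 Ctrl. On the log2 scale Lamb1 fell by 0.44 in KO1 and by 0.87 in KO2, Lama5 fell by 0.30 and 0.53, and Lamc1 was called in KO2 alone, where it fell by 0.44. Lamb3, a chain of the laminin that anchors epithelia, was at 6.91 and 8.32 CPM in the WT Ctrl libraries, 7.19 and 9.06 in those of KO1 Ctrl and 9.94 and 9.51 in those of KO2 Ctrl. Lamb3 was called in neither line, nor was Lamb2. Lama1 to Lama4 and Lamc3 were not among the rows analysed here.

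Of 9 integrin alpha subunits, 4 were higher and 2 lower in KO1 and 3 higher and 3 lower in KO2. Of 7 beta subunits, 4 were higher and 3 lower in KO1 and 2 higher and 2 lower in KO2. Among all genes 25.5% were higher and 26.7% lower in KO1, and 23.3% and 26.6% in KO2, so several of these counts were near the background. The collagen receptor subunit Itga2 was at 64.7 and 64.6 CPM in the WT Ctrl libraries, 18.9 and 21.2 in those of KO1 Ctrl and 33.7 and 39.2 in those of KO2 Ctrl. WT was above both lines, and log2 fold changes of Itga2 were -1.74 ± 0.17 and -0.91 ± 0.16. The laminin receptor subunit Itga6 was at 353 and 374 CPM in the WT Ctrl libraries, 206 and 222 in those of KO1 Ctrl and 228 and 247 in those of KO2 Ctrl. Itga6 was lower in both lines (-0.82 and -0.70). Itgb4, which pairs with Itga6 in hemidesmosomes, was at 19.1 and 20.6 CPM in the WT Ctrl libraries, 4.88 and 5.12 in those of KO1 Ctrl and 21.6 and 23.1 in those of KO2 Ctrl. It was low in KO1 alone (log2 fold change -2.04 ± 0.14, edgeR adjusted p = 4.05e-09), and KO2 gave a value of 0.09. Itgb7, best known from lymphocyte homing, was at 44.9 and 48.4 CPM in the WT Ctrl libraries, 9.76 and 9.52 in those of KO1 Ctrl and 21.6 and 23.2 in those of KO2 Ctrl. In both lines it fell by 2.33 and 1.14 on the log2 scale. In contrast, Itgb5, which forms a vitronectin receptor with Itgav, was at 202 and 183 CPM in the WT Ctrl libraries, 494 and 483 in those of KO1 Ctrl and 360.4 and 358 in those of KO2 Ctrl. Itgb5 was higher in both lines (1.29 and 0.82). Itgb3, the other vitronectin receptor beta subunit (chr11:104469370-104531790, plus strand), had 0 and 4 counts in WT Ctrl, 206 and 164 with KO1 Ctrl and 3 and 3 with KO2 Ctrl. These counts came to 0 and 0.262 CPM in the WT Ctrl libraries, 13.6 and 10.8 in those of KO1 Ctrl and 0.199 and 0.198 in those of KO2 Ctrl. KO1 stood above WT (log2 fold change 6.38 ± 0.40, edgeR adjusted p = 1.01e-09) and at least 61.3-fold above KO2, taking 3 counts per library as the floor in KO2. Itgb8, a subunit that activates latent TGF-β with Itgav, was at 0.746 and 0.327 CPM in the WT Ctrl libraries, 6.002 and 6.96 in those of KO1 Ctrl and 3.78 and 4.097 in those of KO2 Ctrl. It was higher in both lines (3.53 and 2.78) at these low levels.

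The most abundant integrin genes had small changes or none that passed. Itgb1 was at 1555 and 1540.04 CPM in the WT Ctrl libraries, 1345 and 1329 in those of KO1 Ctrl and 1166 and 1223 in those of KO2 Ctrl. Itgb1 fell by 0.27 and 0.46 on the log2 scale. Itga3 was at 965 and 949 CPM in the WT Ctrl libraries, 1104 and 1101 in those of KO1 Ctrl and 1088 and 1119 in those of KO2 Ctrl. Itgav was at 378 and 363 CPM in the WT Ctrl libraries, 412 and 413 in those of KO1 Ctrl and 387 and 409.99 in those of KO2 Ctrl. Neither was called, with log2 fold changes of 0.15 and 0.12 for Itga3 and 0.10 and 0.02 for Itgav. Itga5, the fibronectin receptor alpha subunit, was at 131 and 126 CPM in the WT Ctrl libraries, 216 and 214 in those of KO1 Ctrl and 164 and 176 in those of KO2 Ctrl. Itga5 was higher in both lines by 0.69 and 0.33. Of the 7 beta subunits, Itgb3, Itgb5, Itgb8 and Itgb2 were thus higher in KO1 and Itgb1, Itgb4 and Itgb7 lower. The leukocyte subunit Itgb2 was at 3.12 and 3.01 CPM in the WT Ctrl libraries, 7.72 and 7.68 in those of KO1 Ctrl and 4.57 and 4.56 in those of KO2 Ctrl (1.27 in KO1, 0.49 in KO2). The leukocyte and macrophage list summed to 21.3 to 21.5 CPM in the WT Ctrl libraries, 43.9 to 52.5 in those of KO1 Ctrl and 31.1 to 34.0 in those of KO2 Ctrl, mostly from Cd14, and its part in the Itgb2 and Itgb7 values was not tested.

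All 3 TIMPs among the rows were higher in both lines. Timp3, which is held in the matrix and also inhibits ADAMTS proteases (chr10:85763117-85812251, plus strand), was at 206 and 224 CPM in the WT Ctrl libraries, 565 and 537 in those of KO1 Ctrl and 333 and 322 in those of KO2 Ctrl. Log2 fold changes of Timp3 were 1.31 ± 0.0663 (edgeR adjusted p = 7.05e-11) and 0.53 ± 0.0662 (edgeR adjusted p = 3.76e-06). Timp1 was at 40.1 and 36.1 CPM in the WT Ctrl libraries, 85.5 and 85.6 in those of KO1 Ctrl and 52.2 and 51.7 in those of KO2 Ctrl. Timp2 was at 559.9 and 572 CPM in the WT Ctrl libraries, 867 and 845 in those of KO1 Ctrl and 782 and 753 in those of KO2 Ctrl. Both followed the order WT, KO2, KO1 without overlap, with log2 fold changes of 1.11 and 0.54 in KO1 and 0.36 and 0.36 in KO2. MMPs went the other way in KO2, where 8 of 11 were lower (median log2 fold change -1.05), against 26.6% of all genes, and 1 was higher. In KO1, 3 of the MMPs were higher and 5 lower, against 25.5% and 26.7% of all genes. The one higher in KO2 was Mmp14, a membrane-anchored protease that activates proMMP2, at 131 and 127 CPM in the WT Ctrl libraries, 199 and 191 in those of KO1 Ctrl and 159 and 159 in those of KO2 Ctrl. Both lines were above WT (0.54 and 0.22). Mmp2, a gelatinase, was at 0.61 and 0.327 CPM in the WT Ctrl libraries, 2.51 and 2.43 in those of KO1 Ctrl and 0.928 and 0.925 in those of KO2 Ctrl. Mmp9, the other gelatinase, was at 1.36 and 1.703 CPM in the WT Ctrl libraries, 0.462 and 0.197 in those of KO1 Ctrl and 0.5304 and 0.264 in those of KO2 Ctrl. Both were among the low genes of the set. Mmp28 and Mmp19 had the largest falls of proteases with a mean of at least 5 CPM in KO2, Mmp28 from 7.46 and 8.51 to 2.45 and 3.11 CPM (log2 fold change -1.60 ± 0.19) and Mmp19 from 15.8 and 16.1 to 6.89 and 7.4 CPM (-1.24 ± 0.13).

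Of 9 ADAMTS proteases, 6 were higher and 1 was lower in KO1, and 5 were higher and 3 lower in KO2. The shares over all genes were 25.5% and 26.7% in KO1, and 23.3% and 26.6% in KO2. Adamts7 was at 3.86 and 5.96 CPM in the WT Ctrl libraries, 44.7 and 41.4 in those of KO1 Ctrl and 20.8 and 18.6 in those of KO2 Ctrl. Log2 fold changes of Adamts7 were 3.07 ± 0.14 and 1.91 ± 0.16, and all KO libraries were above both WT ones. Adamts1, which cuts versican, was at 5.35 and 4.13 CPM in the WT Ctrl libraries, 4.62 and 4.203 in those of KO1 Ctrl and 0.597 and 0.925 in those of KO2 Ctrl. Adamts1 was low in KO2 alone (-2.71). Adamtsl3, an ADAMTS-like protein without the protease part, was at 82.97 and 85.7 CPM in the WT Ctrl libraries, 39.5 and 33.5 in those of KO1 Ctrl and 38.5 and 39.6 in those of KO2 Ctrl. Adamtsl3 was lower in both lines (-1.26 and -1.19). Loxl2, a collagen crosslinking enzyme, was at 78.8 and 79.6 CPM in the WT Ctrl libraries, 133 and 133 in those of KO1 Ctrl and 115 and 128 in those of KO2 Ctrl. Loxl2 was higher in both lines (0.70 and 0.53), as was Loxl3 (1.38 and 1.17). Loxl4 was lower in both (-0.56 and -0.50), and Lox was not among the rows analysed here.

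Of the matrix genes called between the KO lines, most were lower in KO2. In KO2 Ctrl against KO1 Ctrl, 36 of the 77 genes (46.8%) were lower and 5 (6.49%) higher, against 9.96% and 8.33% of all genes, with a median log2 fold change of -0.46 against -0.02 over all genes. No fibrillar collagen was higher and 6 of 12 were lower, led by Col1a2 (-3.15 ± 0.0755, edgeR adjusted p = 2.20e-14) and Col3a1 (-3.05 ± 0.0981, edgeR adjusted p = 9.18e-13). Of MMPs 7 of 11 were lower, and of beta integrins 4 of 7, Itgb3 most. Genes higher in KO2 than in KO1 were Itgb4 (2.13 ± 0.14), Itgb7 (1.19 ± 0.10), Itga2 (0.83), Col6a3 (0.93 ± 0.13) and Adamtsl5 (0.84). With 2 libraries a group no exact permutation test over samples can give a p below 0.05, and if replicates are repeat libraries of a culture, these p-values measure only technical spread.

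**Figure D3:**
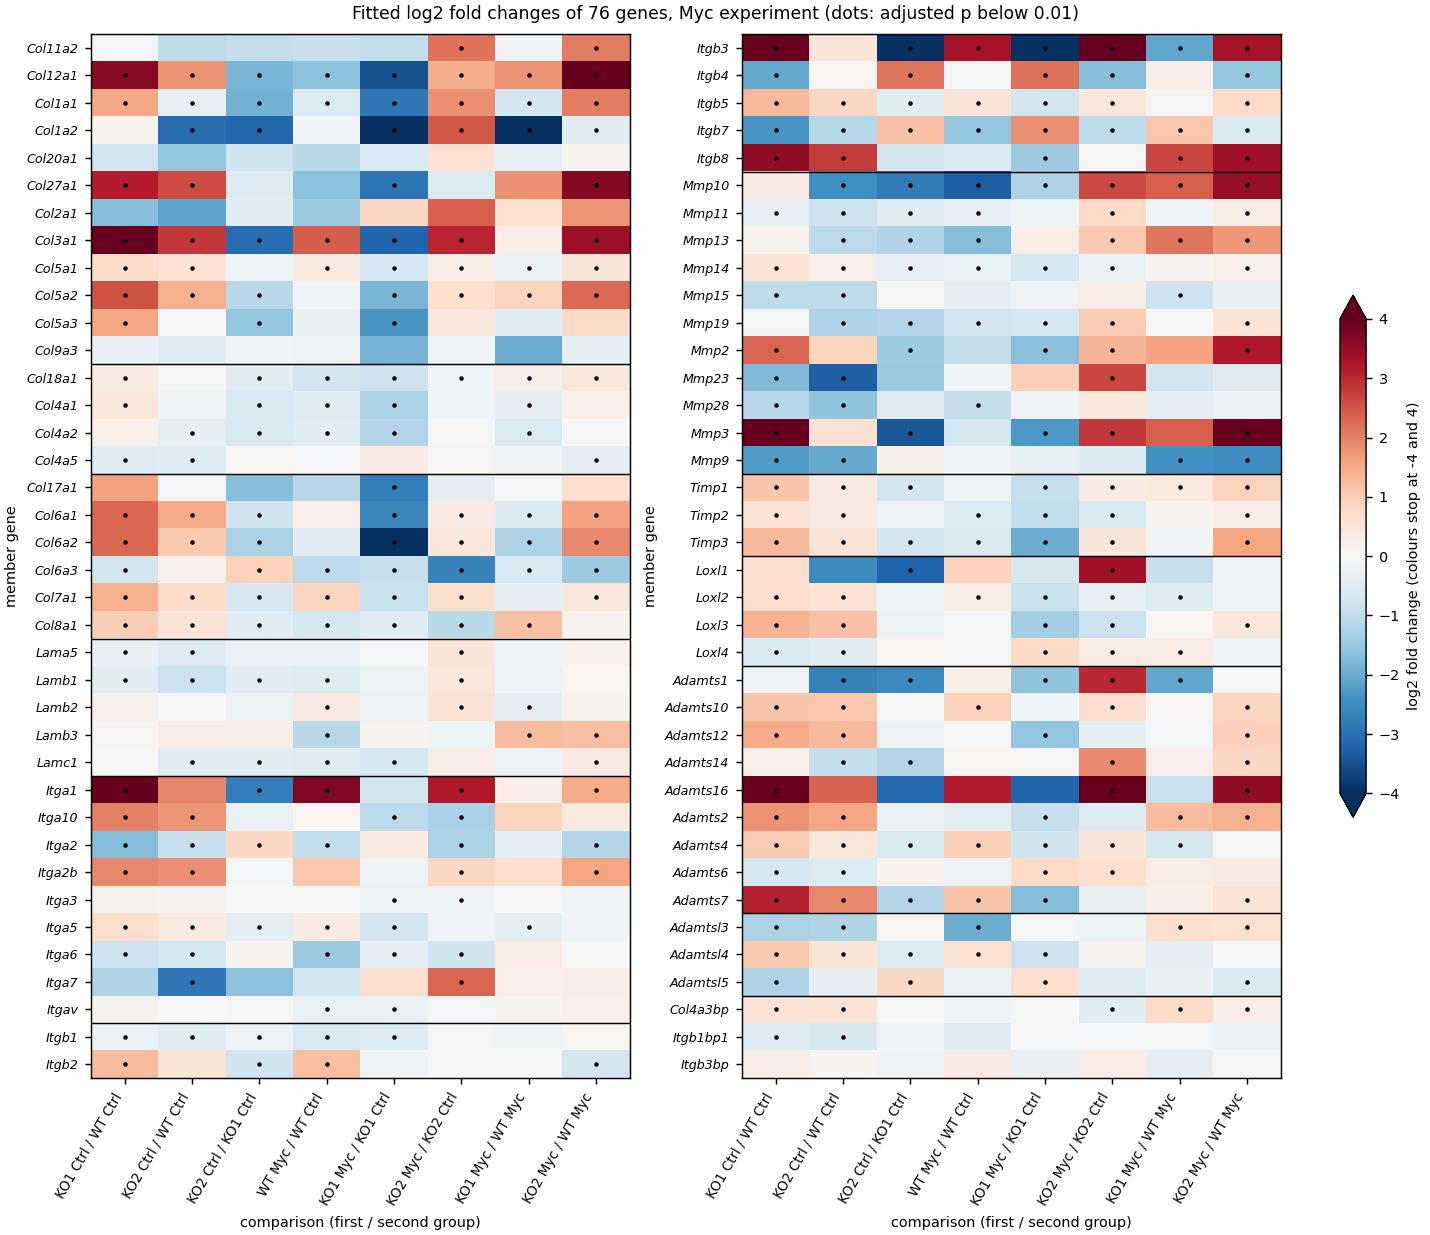
Fitted log2 fold changes of 76 of the 77 genes in the 8 comparisons of the Myc experiment, by gene family (black lines separate families), with dots where the adjusted p was below 0.01 and colours that stop at -4 and 4. The column for KO1 Myc against KO1 Ctrl is mostly blue among collagens, and that for KO2 Myc against KO2 Ctrl is mostly red. Values of genes with 3 counts or fewer in every library of a group depend on the prior count of the fit.

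The remaining genes of the Ctrl comparisons were mostly low. Itga1, a collagen receptor subunit next to Itga2, was at least 9.88-fold higher in KO1 than in WT at the floor of 3 counts per library, and Mmp3, a stromelysin, at least 8.89-fold. Adamts2 and Adamts14 remove the amino propeptide of procollagens, and Adamts2 was higher in both lines (1.81 and 1.59) while Adamts14 was lower in KO2 alone (-0.97). Adamts10, Adamts12, Itga10, Itga2b, Col27a1 and Adamtsl4 were higher in both lines, with log2 fold changes of 0.49 to 3.13. Col4a5, Mmp11, Mmp15, Mmp23, Adamts6 and Itgb1bp1 were lower in both, by 0.33 to 1.77 on the log2 scale apart from Mmp23 in KO2, at least 3.36-fold lower. Mmp10 and Mmp13, of the chromosome 9 cluster with the AP-1 and TATA matches, fell in KO2 by 2.46 and 1.05 and were not called in KO1 (0.32 and 0.15). Col5a3 was higher in KO1 alone (1.59), as was Adamts16, which had 0 counts in both WT Ctrl libraries, and Itga7 was lower in KO2 alone (-2.86). Col2a1, Col9a3, Col11a2, Col17a1, Col20a1, Loxl1 and Itgb3bp were called in neither line, and all of these but Itgb3bp had means below 1 CPM in WT Ctrl.

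The second question was what the Myc vector changes. The libraries labelled WT Myc differed from WT Ctrl in 39 of the 77 genes, with 15 (19.5%) higher and 24 (31.2%) lower, against 21.6% and 22.7% of all genes. MMPs had 6 of 11 lower and none higher, and among basement membrane collagens 3 of 4 were lower. Col3a1 was at 28.95 and 35.5 CPM in WT Myc, 35.3 and 41.2 in KO1 Myc and 357 and 344 in KO2 Myc. WT Myc was above the 5.96 and 5.305 CPM of WT Ctrl (log2 fold change 2.44 ± 0.15, edgeR adjusted p = 2.69e-09). Adamtsl3 was at 20.8 and 23.9 CPM in WT Myc, 33.7 and 36.3 in KO1 Myc and 33.6 and 33.8 in KO2 Myc. In WT Myc it fell by 2.00 on the log2 scale. Itga6 was at 124 and 150.2 CPM in WT Myc, 154 and 180.2 in KO1 Myc and 137 and 133 in KO2 Myc. In WT Myc it fell by 1.49. Itgb7 was at 16.98 and 16.03 CPM in WT Myc, 36.2 and 33.3 in KO1 Myc and 11.04 and 11.1 in KO2 Myc. In WT Myc it fell by 1.58. Itgb2, at 7.96 and 6.93 CPM in WT Myc, and Adamts7, at 10 and 12.6, were higher than in WT Ctrl (1.19 and 1.12). Lamb3 was at 4.21 and 3.38 CPM in WT Myc, 8.29 and 9.77 in KO1 Myc and 7.94 and 9.19 in KO2 Myc. In WT Myc it fell by 1.09.

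Within the KO lines the Myc comparisons ran in opposite directions. The libraries labelled KO1 Myc had 43 of the 77 genes (55.8%) lower and 5 (6.49%) higher than KO1 Ctrl, against 18.2% and 17.9% of all genes. Those labelled KO2 Myc had 35 (45.5%) higher and 14 (18.2%) lower than KO2 Ctrl, against 20.2% and 18.6% of all genes. The medians of the 77 log2 fold changes were -0.72 and 0.28, against 0.01 and 0.02 over all genes. Among fibrillar collagens, 8 of 12 were lower and none was higher in KO1 Myc, and 7 of 12 were higher and none was lower in KO2 Myc. Col1a2 was at 120.4 and 126 CPM in WT Myc, 3.795 and 3.95 in KO1 Myc and 91.8 and 87.6 in KO2 Myc. Log2 fold changes of Col1a2 were -5.20 ± 0.0933 in KO1 Myc (edgeR adjusted p = 7.88e-16) and 2.48 ± 0.0765 in KO2 Myc (edgeR adjusted p = 3.69e-13). Col3a1 rose by 3.06 ± 0.0979 in KO2 Myc (edgeR adjusted p = 5.21e-13) and gave -3.18 in KO1 Myc. Col1a1 was at 18.8 and 22.1 CPM in WT Myc, 11.6 and 12.6 in KO1 Myc and 85.01 and 82.5 in KO2 Myc. KO2 Myc stood near KO1 Ctrl and KO1 Myc was below every Ctrl library. The epithelial list summed to 4159 to 4739 CPM in WT Myc, 4019 to 4149 in KO1 Myc and 3125 to 3271 in KO2 Myc, and the mesenchymal list to 3149 to 3327, 2987 to 3001 and 3417 to 3432 CPM. Pdgfrb was at 40.3 and 42.4 CPM in WT Myc, 53.1 and 56.4 in KO1 Myc and 200.4 and 206 in KO2 Myc. Afp was at 25.4 and 19.8 CPM in WT Myc, 3.56 and 2.57 in KO1 Myc and 0.299 and 0.223 in KO2 Myc. Among the Myc groups, Pdgfrb was thus highest and Afp lowest where Col3a1 was highest. Des of the mesenchymal list was also lowest there, at 0.537 and 0.613 CPM, against 3.03 and 3.25 in WT Myc and 2.04 and 1.57 in KO1 Myc. The part of these markers in the collagen values was not tested.

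All 6 genes of the other collagens were lower in KO1 Myc than in KO1 Ctrl, against 18.2% of all genes. Col6a2 was at 6.25 and 5.36 CPM in WT Myc, 2.04 and 2.82 in KO1 Myc and 21.1 and 22.3 in KO2 Myc. The Col6a2 log2 fold change was -3.99 ± 0.14 against KO1 Ctrl. Col6a1 was at 35.5 and 40.4 CPM in WT Myc, 25.3 and 25.7 in KO1 Myc and 118 and 112 in KO2 Myc. Col6a3 was at 5.46 and 5.85 CPM in WT Myc, 3.15 and 4.197 in KO1 Myc and 2.09 and 2.06 in KO2 Myc. Col6a3 was lower in both lines with Myc, with log2 fold changes of -0.94 in KO1 and -2.68 ± 0.16 in KO2. Among integrins, Itgb3 was at 1.51 and 1.39 CPM in WT Myc, 0.409 and 0.251 in KO1 Myc and 16.5 and 12.6 in KO2 Myc. KO2 Myc was at least 73.2-fold above KO2 Ctrl at the floor of 3 counts per library, and KO1 Myc was lower than KO1 Ctrl (-5.18 ± 0.33). Itgb4 moved the other way, at 20 and 19.6 CPM in WT Myc, 20.4 and 26.9 in KO1 Myc and 7.04 and 6.52 in KO2 Myc. Log2 fold changes of Itgb4 were 2.21 ± 0.14 in KO1 and -1.71 ± 0.13 in KO2. Itgb7 rose in KO1 Myc (1.83 ± 0.0947), as did Loxl4 (105 and 113 CPM, 0.80 ± 0.0634). Itga2 was at 25.7 and 42.6 CPM in WT Myc, 22.4 and 29.8 in KO1 Myc and 15.3 and 14.6 in KO2 Myc. Itga2 was lower in KO2 Myc than in KO2 Ctrl (-1.28 ± 0.18). Timp3 was at 144 and 163 CPM in WT Myc, 134 and 146 in KO1 Myc and 452 and 462 in KO2 Myc. Timp1 was at 39.2 and 32.1 CPM in WT Myc, 49.4 and 42.3 in KO1 Myc and 63.7 and 66.2 in KO2 Myc. Timp2 was at 396 and 430.3 CPM in WT Myc, 426 and 455 in KO1 Myc and 506 and 487 in KO2 Myc. All 3 TIMPs were lower in KO1 Myc, and in KO2 Myc Timp1 and Timp3 were higher and Timp2 lower (0.33, 0.49 and -0.62).

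The abundant genes of these families kept to narrower ranges. Itgb1 was at 1041 and 1111 CPM in WT Myc, 921 and 971 in KO1 Myc and 1135 and 1118 in KO2 Myc. Itga3 was at 999 and 1038 CPM in WT Myc, 959 and 984 in KO1 Myc and 932 and 954 in KO2 Myc. Itgav was at 295 and 355 CPM in WT Myc, 327 and 364 in KO1 Myc and 382 and 362 in KO2 Myc. Of these, Itgb1 was lower in WT Myc and KO1 Myc than in the Ctrl group of the same label (-0.61 and -0.52). Itga5 was at 166 and 172 CPM in WT Myc, 126 and 132 in KO1 Myc and 150.3 and 158 in KO2 Myc. Itgb5 was at 292 and 289 CPM in WT Myc, 294 and 298 in KO1 Myc and 496 and 482 in KO2 Myc. KO2 Myc was the highest of the Myc groups for Itgb5. Col18a1 was at 635 and 666 CPM in WT Myc, 755 and 808 in KO1 Myc and 889 and 890.1 in KO2 Myc. Col4a1 was at 329.98 and 393 CPM in WT Myc, 259 and 296 in KO1 Myc and 422 and 398 in KO2 Myc. Col4a2 was at 234 and 275 CPM in WT Myc, 163 and 182 in KO1 Myc and 261 and 251 in KO2 Myc. These basement membrane chains were lower in WT Myc and in KO1 Myc than in the Ctrl libraries of the same label, with log2 fold changes of -0.48 and -1.27 for Col4a1, -0.43 and -1.17 for Col4a2, and -0.73 and -0.83 for Col18a1. Lama5 was at 427 and 519 CPM in WT Myc, 411 and 445 in KO1 Myc and 569 and 497 in KO2 Myc. Lamb1 was at 525 and 555 CPM in WT Myc, 476 and 493 in KO1 Myc and 541 and 580.2 in KO2 Myc. Lamc1 was at 296 and 379 CPM in WT Myc, 275 and 313 in KO1 Myc and 438 and 402 in KO2 Myc. In KO2 Myc, Lama5 and Lamb1 were above KO2 Ctrl (0.47 and 0.46), as was Lamb2 (0.53). Col5a1 was at 98.7 and 112 CPM in WT Myc, 80.5 and 92.3 in KO1 Myc and 146 and 147 in KO2 Myc. Mmp14 was at 115 and 115 CPM in WT Myc, 115 and 129 in KO1 Myc and 135 and 130.5 in KO2 Myc. Loxl2 was at 91.2 and 115 CPM in WT Myc, 67.8 and 77.2 in KO1 Myc and 95.9 and 93.99 in KO2 Myc. Mmp14 was lower with Myc under each of the 3 labels (-0.25, -0.70 and -0.25). Adamts1 was at 5.79 and 6.51 CPM in WT Myc, 1.69 and 1.19 in KO1 Myc and 6.21 and 6.07 in KO2 Myc. The Adamts1 log2 fold change was 3.01 for KO2 Myc against KO2 Ctrl. The gelatinases were again low. Mmp2 was at 0.197 and 0.301 CPM in WT Myc, 0.467 and 1.13 in KO1 Myc and 2.45 and 2.28 in KO2 Myc. Mmp9 was at 1.51 and 1.51 CPM in WT Myc, 0.234 and 0.313 in KO1 Myc and 0.179 and 0.334 in KO2 Myc.

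For 38 of 52 genes with a mean of at least 5 CPM (73.1%), the KO1 Myc mean on a log2(CPM + 1) scale was nearer to KO2 Ctrl than to KO1 Ctrl, and among 10439 such genes of the table the share was 55.2%. For 28 of the 52 (53.8%), the KO2 Myc mean was nearer to KO1 Ctrl than to KO2 Ctrl, and over all genes the share was 56.8%. WT Myc, whose label names neither line, was also nearer to KO2 Ctrl than to KO1 Ctrl for 34 of the 52 (65.4%, against 49.3% of all genes). Trim33 had the same order for the KO labels, with KO1 Myc near KO2 Ctrl and KO2 Myc near KO1 Ctrl. In WT Myc, at 132 and 158 CPM, Trim33 was instead nearer to KO1 Ctrl (122 and 130.3) than to KO2 Ctrl (204 and 210.0). Whether Myc, the line or the labelling accounts for these distances cannot be told apart in these data.

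The third question was how the KO lines differ from WT when all carry Myc. KO2 Myc had 37 of the 77 genes (48.1%) higher and 10 (13%) lower than WT Myc, against 17.2% and 18% of all genes, and KO1 Myc had 14 (18.2%) higher and 17 (22.1%) lower, against 12.6% and 12.5%. Both were set against the same WT Myc libraries. Among genes with a mean of at least 5 CPM, the largest rise in KO2 Myc was that of Col12a1 (4.90 ± 0.20, edgeR adjusted p = 8.09e-12). Its level was 1.51 and 0.904 CPM in WT Myc, 3.97 and 4.32 in KO1 Myc and 38.7 and 32.6 in KO2 Myc. Col3a1 (3.45 ± 0.10) and Itgb3 (3.33 ± 0.24) followed. The largest falls there included those of Itgb4 (-1.54 ± 0.13) and Itga2 (-1.19 ± 0.18). In KO1 Myc the largest fall was in Col1a2 (-4.98 ± 0.0939, edgeR adjusted p = 1.15e-15), followed by Col1a1 (-0.75 ± 0.0984) and Adamts4 (-0.71 ± 0.11, 18.9 and 19.8 CPM in WT Myc and 10.2 and 13.5 in KO1 Myc). Genes with the largest rises were Lamb3 (1.26 ± 0.17), Col8a1 (1.18 ± 0.0884, 31.2 and 39.8 CPM in WT Myc and 78 and 82.4 in KO1 Myc) and Itgb7 (1.08 ± 0.0861). Col3a1, higher in both KO lines than in WT among the Ctrl groups, gave 0.25 in KO1 Myc against WT Myc, which did not pass.

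Genes of the same pathways outside the symbol rule were counted from 4 lists, to be read against 25.5% higher and 26.7% lower among all genes in KO1 and 23.3% and 26.6% in KO2. Of 20 genes of collagen folding and processing, 11 were higher and 4 lower in the KO1 line, and 7 and 7 in the KO2 line. P4ha3, a prolyl hydroxylase subunit, had a mean of 3.81 CPM in WT Ctrl and 20.01 in KO1 Ctrl (log2 fold change 2.34). Of 20 other matrix components, 13 were higher and 3 lower in the KO1 line, and 7 and 5 in the KO2 line. Thbs1, an adhesive glycoprotein that activates latent TGF-β, rose from a mean of 319 CPM to 1219 in KO1 and 1165 in KO2, and Nid1, the basement membrane linker of laminin and type IV collagen, from 196 to 459 and 556. Fn1, fibronectin, was higher in KO1 (0.42) and lower in KO2 (-0.84). Of 27 adhesion linkers and matrix receptors, 11 were higher and 7 lower in KO1 and 9 and 10 in KO2, with the collagen receptor kinase Ddr2 at 80.4, 7.17 and 2.75 CPM in WT, KO1 and KO2 Ctrl. Of 14 genes of the plasminogen system and sheddases, 6 were higher and 6 lower in KO1 and 5 and 6 in KO2, Plaur, the urokinase receptor, falling in both (-1.49 and -1.25). In KO1 Myc against KO1 Ctrl the matrix components had 14 of 20 lower and none higher, the folding genes 11 of 20 lower and none higher, the adhesion genes 16 of 27 lower and 3 higher, and the plasminogen list 4 of 14 lower and 3 higher, against 18.2% lower and 17.9% higher among all genes.

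In the HU experiment, KO against WT under vehicle gave fewer calls, 2 of 54 genes higher (3.7%) and 6 lower (11.1%), against 3.07% and 2.52% of all 11210 genes at an adjusted p below 0.01. The 8 calls became 5 without KO vehicle replicate 1 or without WT vehicle replicate 2, and 4 with DESeq2 or with these groups fitted alone. Col3a1 was at 47.1 and 35.6 CPM in WT vehicle, 38.9 and 34.6 in WT HU, 0.799 and 1.97 in KO vehicle and 0.696 and 0.7802 in KO HU. Both KO vehicle libraries were far below both WT ones, the reverse of the Ctrl groups above, with a log2 fold change of -4.76 ± 0.42 (edgeR adjusted p = 5.87e-14). Adamtsl3 was at 34.6 and 32.1 CPM in WT vehicle, 31.5 and 31.8 in WT HU, 7.19 and 9.19 in KO vehicle and 9.75 and 7.02 in KO HU. Adamtsl3 was lower in KO with a log2 fold change of -1.96 ± 0.31, as in both KO lines of the Myc experiment. Col8a1 was at 63.5 and 49.7 CPM in WT vehicle, 39.6 and 45.2 in WT HU, 132 and 134 in KO vehicle and 119 and 104 in KO HU. Col8a1 was higher in KO (1.28 ± 0.16, edgeR adjusted p = 6.91e-09), again as in both lines. Itgav was at 165 and 138 CPM in WT vehicle, 201 and 186 in WT HU, 198 and 213 in KO vehicle and 292 and 250.5 in KO HU. It was higher in KO (0.49 ± 0.12), a call that was lost without WT vehicle replicate 2, without either KO vehicle replicate and with DESeq2. The prefix-only gene Col4a3bp was at 159 and 131 CPM in WT vehicle, 104 and 84.4 in WT HU, 85.4 and 83.7 in KO vehicle and 55.4 and 63.2 in KO HU. Col4a3bp was lower in KO (-0.73 ± 0.15), a call lost without WT vehicle replicate 1. Itgb5 was at 181 and 195 CPM in WT vehicle, 145 and 152 in WT HU, 119 and 142 in KO vehicle and 119 and 126 in KO HU. Col18a1 was at 362 and 394 CPM in WT vehicle, 476 and 465 in WT HU, 253 and 301 in KO vehicle and 387 and 362 in KO HU. Both genes were lower in KO (-0.47 and -0.40). Itgb8 had 9 and 8 counts in WT vehicle and 0 and 0 in KO vehicle, at least 3.18-fold lower at the floor of 3 counts per library. The mesenchymal list, again mostly Vim, summed to 2776 to 3077 CPM in WT vehicle and 3144 to 3476 in KO vehicle. Of its other members in this table, Pdgfrb was at 13 and 16.8 CPM in WT vehicle and 10.4 and 4.6 in KO vehicle, or 30 and 44 counts against 26 and 14. Both KO values of Pdgfrb were below both WT values, as for Col3a1, while those of Cdh2 overlapped, at 139 and 125 CPM in WT vehicle and 132 and 127 in KO vehicle. Afp was at 17.3 and 13.8 CPM in WT vehicle and 24.8 and 24.9 in KO vehicle. Krt19 was at 133 and 177 CPM in WT vehicle and 237 and 249 in KO vehicle. Both KO libraries lay above both WT ones for Afp, Krt19 and Krt8, and below them for Sox9 and Spp1, while Krt18 overlapped. For Afp and Krt19 this was the reverse of the Ctrl groups of the Myc experiment. The part of these markers in the Col3a1 value was not tested.

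Of these 8 genes, 6 were also called in both KO lines of the Myc experiment, in 1 direction per gene, and the experiments share no library. The direction in the HU experiment was the same for 2, Col8a1 and Adamtsl3, and opposite for 4, Col3a1, Col4a3bp, Itgb5 and Itgb8. Over all genes, 315 were called in the HU experiment and, in 1 direction, in both lines, and 200 of them (63.5%) were opposite, so the share of 66.7% here was near that of the tables as a whole. The plot of KO against WT in 3 comparisons shows this for 40 genes with a mean of at least 5 CPM in both experiments. Which of the KO lines the HU experiment used is not given.

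**Figure D4:**
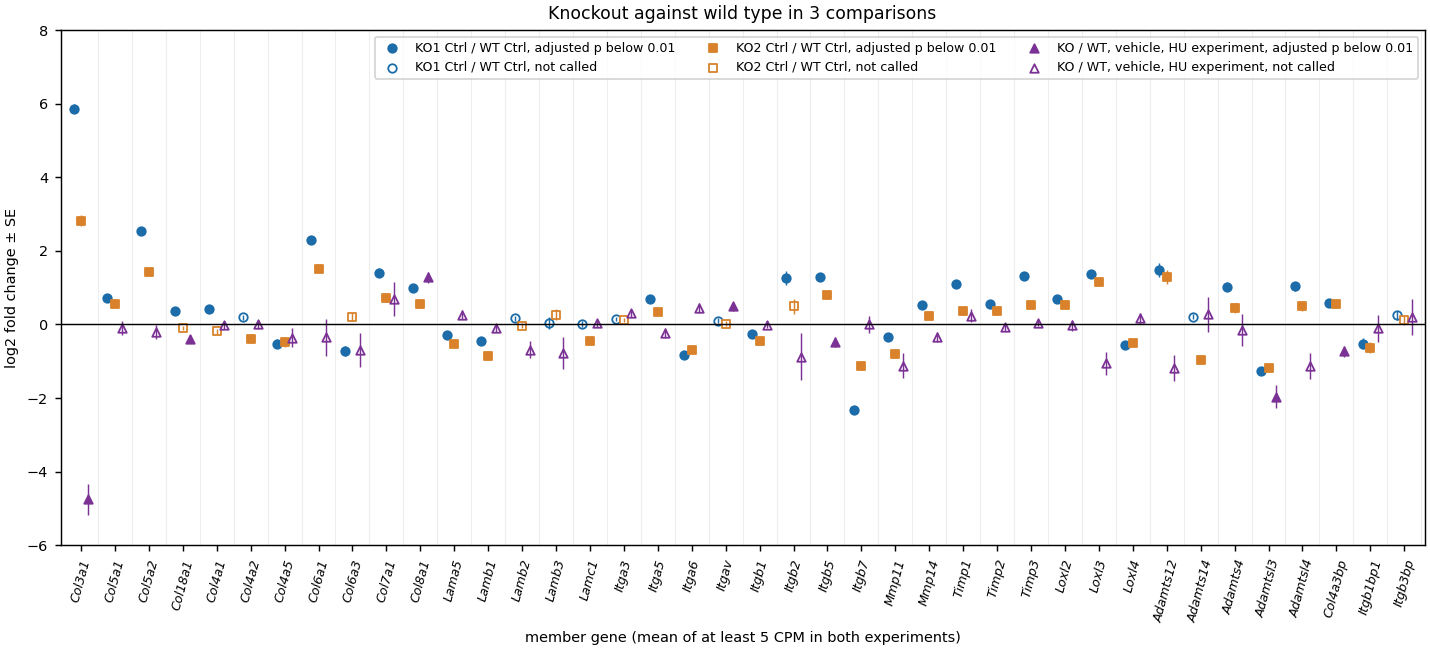
Fitted log2 fold changes (± SE) of KO against WT for 40 genes in KO1 Ctrl (circles), KO2 Ctrl (squares) and the KO vehicle libraries of the HU experiment (triangles), filled where the adjusted p was below 0.01. Col3a1 lies at 5.87 and 2.82 in the Myc experiment and at -4.76 in the HU experiment, while Adamtsl3 is below 0 and Col8a1 above 0 in all 3.

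HU changed few genes of these families, and most of those called were higher. In WT, 5 of 54 genes (9.26%) were higher after 4 h of HU and 1 (1.85%) was lower, against 6.39% and 3.44% of all genes at an adjusted p below 0.05, and in KO, 8 (14.8%) were higher and 1 (1.85%) lower, against 4.65% and 1.8%. The KO count rests on single libraries, since it fell from 9 to 3 without KO vehicle replicate 1 or without KO HU replicate 1 and to 5 without KO vehicle replicate 2. Timp3 was at 378 and 348 CPM in WT vehicle, 1079.7 and 1101 in WT HU, 397 and 335 in KO vehicle and 1039 and 950.3 in KO HU. HU libraries lay above vehicle libraries in both genotypes, by 1.58 ± 0.10 in WT (edgeR adjusted p = 9.71e-20) and 1.44 ± 0.10 in KO (edgeR adjusted p = 4.42e-18) on the log2 scale, or 2.98-fold and 2.71-fold. Lamc1, the laminin chain that joins Lama5 and Lamb1, was at 329 and 288 CPM in WT vehicle, 420.5 and 408 in WT HU, 285 and 329 in KO vehicle and 423 and 386 in KO HU. Rises of Lamc1 were 0.42 and 0.39 on the log2 scale. Loxl4 was at 95.9 and 86.4 CPM in WT vehicle, 160.3 and 159.6 in WT HU, 98.2 and 101 in KO vehicle and 133 and 128 in KO HU. Loxl4 was higher in WT (0.80), while the KO value of 0.39 did not pass.

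Col12a1 had 2 and 6 counts in WT vehicle, 40 and 36 in WT HU, 2 and 2 in KO vehicle and 14 and 12 in KO HU. Its level was 0.864 and 2.29 CPM in WT vehicle, 12.98 and 12.7 in WT HU, 0.799 and 0.656 in KO vehicle and 4.88 and 4.68 in KO HU. HU libraries were higher in WT (2.95 ± 0.66, edgeR adjusted p = 9.09e-04) and at least 4.38-fold higher in KO at the floor of 3 counts per library. Adamts6 was at 6.91 and 2.29 CPM in WT vehicle, 11.03 and 11.3 in WT HU, 4.79 and 1.97 in KO vehicle and 10.8 and 14.04 in KO HU. It was called after HU in KO (1.89 ± 0.53) and not in WT (1.29). The KO call was lost without KO vehicle replicate 2 or KO HU replicate 2 and with DESeq2. Col18a1, Itga5 and Itgav were higher after HU in KO by 0.43, 0.51 and 0.39, and gave 0.30, 0.24 and 0.35 in WT. Col4a3bp fell in both, by 0.63 and 0.52, calls that were lost on leaving out WT vehicle replicate 1 or WT HU replicate 2 in WT, and any of the 4 libraries in KO. No gene of the set was called for a difference in HU response between genotypes (edgeR, 0 of 54 in either direction, against 0.0446% and 0.0268% of all genes). At an unadjusted p below 0.05 there were 4 of 54, against 602 of all 11210 genes, and DESeq2 called 0 of the 54. Col3a1 stayed low in KO HU libraries, and its WT values after HU did not pass the test (-0.17).

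**Figure D5:**
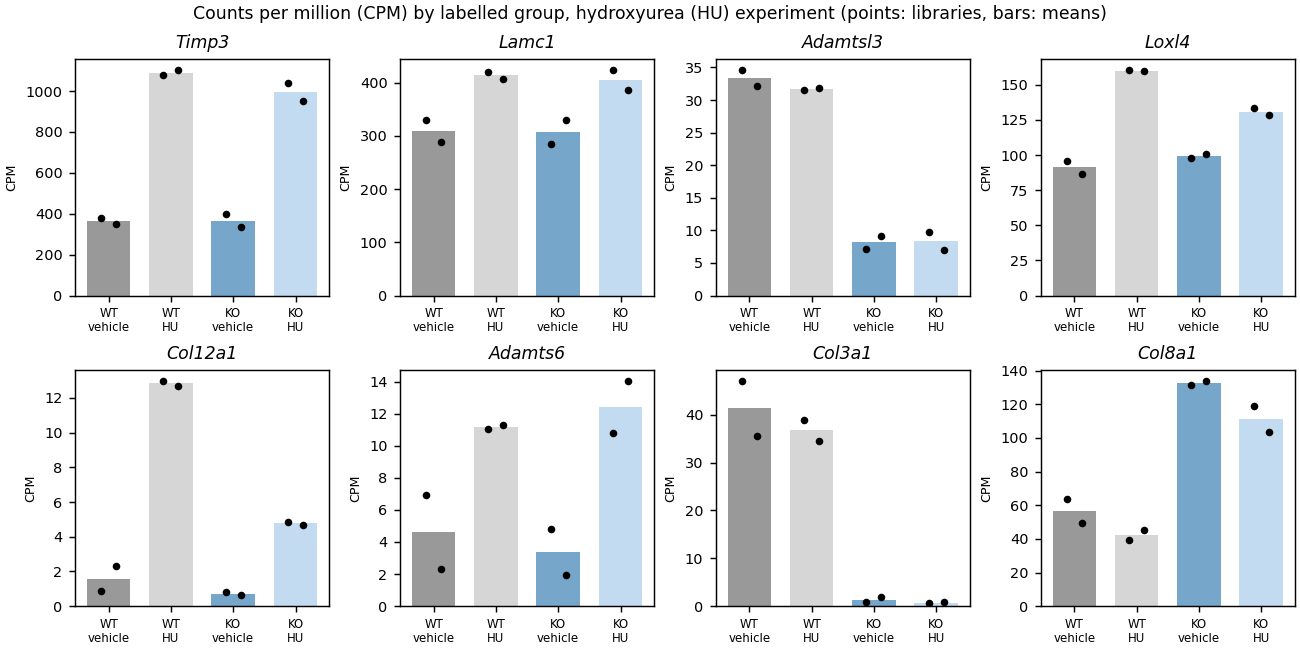
CPM of 8 genes in each library of the HU experiment (points) with the group mean (bars), on linear axes that start at 0. Timp3, Lamc1 and Col12a1 are higher with HU in both genotypes, while Adamtsl3, Col3a1 and Col8a1 differ by genotype and keep that order with HU.

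The other genes of the fixed list gave these values in the HU experiment. Among collagens, Col1a1 was at 5.18 and 7.65 CPM in WT vehicle, 5.19 and 7.06 in WT HU, 0.799 and 1.31 in KO vehicle and 3.48 and 3.12 in KO HU. Col4a1 was at 238 and 255 CPM in WT vehicle, 239 and 227 in WT HU, 232 and 242 in KO vehicle and 247 and 243 in KO HU. Col4a2 was at 179.7 and 184 CPM in WT vehicle, 190.1 and 194 in WT HU, 186 and 169 in KO vehicle and 155 and 159.9 in KO HU. The type IV chains were not called in any comparison, and Col1a1, with 2 to 20 counts a library, gave -2.49 in KO against WT, which did not pass. Col5a1 was at 51.8 and 61.6 CPM in WT vehicle, 51.3 and 69.2 in WT HU, 51.9 and 51.5 in KO vehicle and 54.3 and 53.8 in KO HU. Col6a1 was at 6.91 and 7.65 CPM in WT vehicle, 8.44 and 12 in WT HU, 3.99 and 6.89 in KO vehicle and 12.2 and 9.75 in KO HU. Neither gene was called in any comparison of this experiment. Of laminin chains, Lama5 was at 203 and 284 CPM in WT vehicle, 269.6 and 259 in WT HU, 285 and 281 in KO vehicle and 330.1 and 276 in KO HU. Lamb1 was at 299.7 and 322 CPM in WT vehicle, 327 and 340.3 in WT HU, 275 and 290.2 in KO vehicle and 268 and 268 in KO HU. Lamb3 was at 13.8 and 6.88 CPM in WT vehicle, 20.8 and 18.4 in WT HU, 6.39 and 5.25 in KO vehicle and 16.7 and 10.9 in KO HU. No laminin chain passed between genotypes, and Lamb3 gave log2 fold changes after HU of 0.92 and 1.25 that did not pass. Of integrins, Itga2 was at 0.864 and 2.29 CPM in WT vehicle, 3.24 and 3.53 in WT HU, 9.58 and 6.56 in KO vehicle and 8.36 and 9.36 in KO HU. Itga3 was at 751 and 851 CPM in WT vehicle, 647 and 739 in WT HU, 913 and 1001 in KO vehicle and 860.2 and 831 in KO HU. Itga5 was at 122 and 111 CPM in WT vehicle, 129 and 149 in WT HU, 94.2 and 98.8 in KO vehicle and 153 and 123 in KO HU. Itga2, lower in both KO lines of the Myc experiment, was not called here (2.32) at up to 24 counts a library. Itga6 was at 111 and 120.04 CPM in WT vehicle, 124 and 116 in WT HU, 172 and 136 in KO vehicle and 158 and 152 in KO HU. Itgb1 was at 1135 and 1119 CPM in WT vehicle, 1059 and 1084 in WT HU, 1175 and 999.8 in KO vehicle and 1039.9 and 1116 in KO HU. Itgb4 was at 0.864 and 0 CPM in WT vehicle, 3.57 and 2.12 in WT HU, 3.99 and 2.95 in KO vehicle and 6.62 and 6.63 in KO HU. The Itga6 log2 fold change of 0.45 in KO against WT did not pass either, and Itgb4 had 3 counts or fewer in each WT vehicle library. Mmp14 was at 114 and 133 CPM in WT vehicle, 112 and 125 in WT HU, 86.2 and 102 in KO vehicle and 129.9 and 114 in KO HU. Timp1 was at 63.1 and 72.3 CPM in WT vehicle, 84.03 and 95.3 in WT HU, 58.7 and 94.9 in KO vehicle and 86.4 and 76.1 in KO HU. Timp2 was at 693 and 711 CPM in WT vehicle, 722 and 715 in WT HU, 649 and 649 in KO vehicle and 576 and 551 in KO HU. None of these 3 was called between genotypes or after HU. Loxl2 was at 119 and 99.02 CPM in WT vehicle, 108 and 116 in WT HU, 92.2 and 115 in KO vehicle and 86.4 and 86.6 in KO HU. Adamts1 was at 0 and 0.765 CPM in WT vehicle, 2.596 and 2.12 in WT HU, 3.19 and 5.25 in KO vehicle and 6.96 and 3.12 in KO HU. Of the genes of this paragraph, only Itga5 was called in a comparison of the HU experiment, after HU in KO. Col1a2, Itgb3, Mmp2 and Mmp9 were not among the rows of this experiment analysed here.

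The same lists of pathway genes were counted after HU, where 6.39% of all genes were higher and 3.44% lower in WT and 4.65% and 1.8% in KO. Of 25 adhesion linkers and matrix receptors 5 were higher in WT and 3 in KO, with none lower, among them Sdc4, a heparan sulfate receptor (0.92 and 0.68), and Zyx, a focal adhesion protein (0.95 and 0.62). Of 14 genes of the plasminogen system and sheddases 3 were higher in each genotype and none lower, among them Plat, tissue plasminogen activator, with means of 14.6 and 51.02 CPM in WT and 17.9 and 52.2 in KO. Of 19 collagen folding genes 2 were higher in each genotype, P4ha1 and the lysyl hydroxylase Plod2 (0.80 and 0.92). Of 16 other matrix components Fn1 was higher in both (0.61 and 0.41) and Ctgf lower in both (-0.54 and -0.56). Between genotypes under vehicle, matrix components had 3 of 16 higher and 4 lower in KO, against 3.07% and 2.52% of all genes, with Cyr61 higher (1.42) and Emilin1 lower (-2.72).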

How the data were processed

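RNA-seq libraries of mouse p19/Nras liver cancer cells were analysed from 2 deposited tables, one of 12 libraries (Myc experiment) and one of 8 (HU experiment). The authors' values were whole-number counts of reads per gene, although 1 table was named as normalized. Per the submitters' processing notes, reads were mapped with STAR 2.5.4 to mm9 and edgeR 3.26.8 was used, and bcl2fastq 2.20 and FastQC 0.11.5 are listed for the HU libraries. The counting tool, annotation, strand setting and filter are not given in the sources used here. The labels name TRIzol and NEBNext Ultra II, and the study's methods name RNeasy and NEBNext Ultra. Of counts from 1 to 50, 71.9% were even in the HU table and 48.4% in the Myc table. Columns of the authors' own comparisons (log2 fold change, log2 CPM, F, p and adjusted p) were not used. Rows without a symbol, 298 and 168, were kept in library sizes and tests.

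Each table was fitted whole in edgeR 4.0.16 (R 4.3.3, limma 3.58.1) with a term per group, TMM scaling (factors 0.958 to 1.02) and glmQLFTest, and p-values were adjusted by Benjamini-Hochberg over all genes of the table. Calls used an adjusted p below 0.01 between genotypes and with Myc, and below 0.05 with HU. filterByExpr removed 0 genes. On data simulated with the same spread for every gene, 172 of 200 genes changed by a log2 fold change of 1 were recovered in KO1 against WT (13107 genes, 1 unchanged gene called). In the HU response of WT, 151 of 200 were recovered (11210 genes, 8 unchanged called). Recovery where genes differ in spread was not tested. CPM are counts per 1000000 counts of the library. Replicates differed by more than sampling noise in the Myc experiment (chi-square per gene of 11.0 in WT Myc and 2.2 to 4.5 in the other groups). All groups shared 1 estimate of the spread, so p-values of comparisons with WT Myc may understate its spread. In the HU experiment the chi-square per gene was 2.2 to 4.6, which cannot be judged in the same way, since low counts there were mostly even. A gene with 3 counts or fewer in every library of a group got a bound at 3 counts per library.

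Values in every library are given for a fixed list of 33 genes, as far as they are in a table, and for the 3 genes with the largest rise and fall per comparison among called genes with groups that did not overlap and a mean of at least 5 CPM, apart from 2 genes whose results are not reported here. The members and lists were chosen with earlier results of these data known. Gene positions are from GENCODE vM1 (mm9) and promoter sequences from RefSeq (GRCm38.p6). DESeq2 1.42.0, a low-count filter, a fold threshold, leaving out each library, a replicate block and, for the HU table, halved counts were tried as alternatives.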

Additional observations from a re-analysis of the deposited data

Results flagged for a closer look

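Col1a1, the alpha 1 chain of type I collagen, differed between the KO lines in the direction of its change against the same WT Ctrl libraries. Its log2 fold changes were 1.54 for the KO1 line and -0.34 for the KO2 line, and the direct test of KO2 Ctrl against KO1 Ctrl gave -1.88 ± 0.0790 (SE, edgeR's quasi-likelihood test, Benjamini-Hochberg adjusted p = 3.19e-11). Both KO1 libraries were above and both KO2 libraries below both WT libraries.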

How the results depend on the processing

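Of 61 values of genes named by the rule, under 700 recalculations, 673 kept direction and side of the threshold, 27 fell short of the threshold and 0 changed direction. Requiring an absolute log2 fold change of at least 1 as well left 37 genes called of 56 in KO1 Ctrl against WT Ctrl, 26 of 53 in KO2 Ctrl against WT Ctrl, 20 of 41 in KO2 Ctrl against KO1 Ctrl, 13 of 39 in WT Myc against WT Ctrl, 25 of 48 in KO1 Myc against KO1 Ctrl, 24 of 49 in KO2 Myc against KO2 Ctrl, 13 of 31 in KO1 Myc against WT Myc, 24 of 47 in KO2 Myc against WT Myc, 4 of 8 in KO against WT under vehicle, 2 of 6 with HU in WT and 3 of 9 with HU in KO. Fitting the groups of KO against WT under vehicle alone gave 4 calls, and DESeq2 gave 4 there and 4 with HU in KO. With the threshold of 0.05 for KO against WT under vehicle, chosen after seeing the data, 18 genes were called, 6 higher and 12 lower. The fit of the 6 Ctrl libraries alone, also chosen after seeing the data, gave 58, 54 and 44 calls in the 3 Ctrl comparisons. Shares over all genes under these alternative settings are not given here, so the counts have no background beside them. The causes were not tested beyond what each alternative changes.

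Leaving out 1 library at a time gave 51 to 52 calls in KO1 Ctrl against WT Ctrl, 44 to 47 in KO2 Ctrl against WT Ctrl, 32 to 34 in KO2 Ctrl against KO1 Ctrl, 34 to 42 in WT Myc, 39 to 45 in KO1 Myc, 35 to 41 in KO2 Myc, 26 to 33 in KO1 Myc against WT Myc and 35 to 48 in KO2 Myc against WT Myc. In the HU experiment the ranges were 5 to 8 for KO against WT under vehicle, 4 to 9 for HU in WT and 3 to 7 for HU in KO, and the lone library left in a group was assumed to vary like the other groups. The count for KO against WT fell from 8 to 5 without KO vehicle replicate 1 and without WT vehicle replicate 2. The difference in HU response between genotypes gave 0 calls among these genes throughout. Same-numbered replicates did not deviate together throughout (correlations of -0.38 to 0.51 in the Myc experiment, 4 of 15 pairs above 0.1, and -0.02 to 0.09 in the HU experiment), so the numbers were not taken as pairs. With a replicate block the counts were 54, 53, 41, 39, 49, 50, 32 and 47 in the 8 comparisons of the Myc experiment, in the order above, 9 for KO against WT under vehicle, 8 with HU in WT, 10 with HU in KO and 0 for the difference in response. The depth of the HU experiment limits the genes with few counts, and 7 of its 54 genes had 3 counts or fewer in every library of a group.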
